A study of Caenorhabditis elegans with 2 samples.

Results

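The X chromosome regions shared by both replicates are regions listed by ChIP-seq for eGFP-tagged NHR-12 in Caenorhabditis elegans that recur in 2 biological replicates. A region of the replicate 1 list was a member when its summit, the position of highest signal, lay inside any region of the replicate 2 list. Of the 2534 X regions of replicate 1, 525 were members (20.7%, exact 95% interval 19.2 to 22.3). Over all chromosomes, 2987 of 13876 replicate 1 regions were shared, a background of 21.5%, and 2440 of these were autosomal. The share on X was thus near that of the whole list. Replicate 2 listed 4201 regions on X, which covered 9.51% of the chromosome.

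ChIP-seq was made from whole, mixed-sex worms at the third larval stage, L3. The strain is OP318, which carries the unc-119(ed3) allele on chromosome III and the insertion wgIs318, described as targeting nhr-12. The labels give nhr-12 as the antibody and describe the protein as tagged with eGFP, so whether the antibody bound the tag or the receptor is unclear. Both replicates have this genotype, and no strain without the insertion was analysed here. The lists hold peaks together with background, as input for a reproducibility analysis (IDR). A separate list, called optimal, holds peaks thresholded by IDR and was made from both replicates.

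Nuclear hormone receptors are transcription factors with a zinc-finger DNA-binding domain, and the family is greatly expanded in nematodes. The X chromosome of this species is also the target of the dosage compensation complex, which loads at recruitment sites and lowers transcription from both X chromosomes of hermaphrodites. A GC-rich sequence known as the MEX motif marks many of those sites, and xol-1, sdc-1 and fox-1 are X-linked genes of the same sex-determination and dosage compensation pathway.

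Overlap with the optimal list divided the members into a small, mostly stronger set and a large, mostly weaker set, whose signal values overlapped. Of the 525 members, 23 overlapped 1 of the 20 optimal peaks on X by at least 1 bp (4.38%, exact 95% interval 2.80 to 6.50), and each of the 20 X peaks had a member. The background share was 1.94% of all shared regions, or 58 of 2987, of which 22 were mitochondrial. Among shared autosomal regions it was 0.533%, or 13 of 2440. The optimal list was made by the authors from these same replicates, so the overlap is a mark on the members and not independent evidence. Intervals on shares cover counting error over regions only.

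The sequences of the optimal members are shown first, since a word chosen on them was present at most, though not all, of their loci. Candidates were the 12-base words within 150 bp of the summits of the 23 optimal members, on both strands. Only the 172 words matched at 10 or more of these members, with up to 2 mismatches, were compared. Of these, the word TCGCGCAGGGAC differed most in frequency between the 23 optimal members and the 502 others. It contains the core of the MEX motif. At 4 members it was exact, and these 4 loci are given with 20 flanking bases on each side, on the strand of the word, with the word in capitals.
chrX:4209244-4209295 minus strand, exact: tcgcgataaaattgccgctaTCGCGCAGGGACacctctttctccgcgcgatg
chrX:8036379-8036430 minus strand, exact: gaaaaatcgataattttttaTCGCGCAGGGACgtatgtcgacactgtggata
chrX:11094204-11094255 minus strand, exact: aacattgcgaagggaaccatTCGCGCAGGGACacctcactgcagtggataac
chrX:14525878-14525929 minus strand, exact: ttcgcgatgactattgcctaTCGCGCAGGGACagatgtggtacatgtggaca
At 5 further loci the word had 1 mismatch. The substitution is written with the base of the word first, its position counted from 1 at the 5′ end of the word, and then the base in the genome.
chrX:2997101-2997152 minus strand, C12G: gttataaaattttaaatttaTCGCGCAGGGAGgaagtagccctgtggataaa
chrX:6296554-6296605 plus strand, C12A: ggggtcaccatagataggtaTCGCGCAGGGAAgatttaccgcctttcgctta
chrX:11937435-11937486 minus strand, C6G: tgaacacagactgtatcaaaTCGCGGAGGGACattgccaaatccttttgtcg
chrX:13514536-13514587 plus strand, C12T: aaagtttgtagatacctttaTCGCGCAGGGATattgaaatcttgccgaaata
chrX:16682077-16682128 minus strand, G10A: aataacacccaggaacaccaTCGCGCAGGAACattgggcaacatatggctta
Of these 5 changes, 3 lay at the last base of the word. In all, 15 of the 23 optimal members had a copy (65.2%, exact 95% interval 42.7 to 83.6), at 14 of the 20 loci. A copy was found at 1 of 502 other members, at 8 of 2009 unshared X regions (0.398%) and at 13 of 2440 shared autosomal regions, a background of 0.533%. The word was chosen on these members, so its share among them is a description. Genome sequence and coordinates are from the RefSeq assembly WBcel235, the same build as the ce11 lists.

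The remaining 5 loci with the word had 2 mismatches, with substitutions A11G and C12T near summit 806742, A11C and C12A near 1345027, C6A and C12T near 1627071, C2G and C6A near 5429439, and G10T and C12G near 16056580. The first 5 bases of the word were intact at 4 of these 5 loci. The 6 loci without the word included the second and the third strongest X regions of replicate 1, which are shown for contrast as 61 bases around the summit on the plus strand.
chrX:13700799-13700859 plus strand, no copy: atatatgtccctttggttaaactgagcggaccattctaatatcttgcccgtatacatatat
chrX:12363193-12363253 plus strand, no copy: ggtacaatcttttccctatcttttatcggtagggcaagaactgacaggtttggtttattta
The better of these, with signal values of 35.3 in replicate 1 and 43.4 in replicate 2, had no match with fewer than 5 mismatches within 150 bp. The other, with 33.5 and 21.4, had none with fewer than 4. Strong recurrent signal on X therefore also occurred where these letters were absent from the window, from which nothing follows about any factor.

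Members were grouped by the fewest mismatches to the word, and the signal value, the authors' peak score within each list, was compared. The 4 members with an exact copy had replicate 1 values of 29.3, 21.3, 67.2 and 28.3 and replicate 2 values of 33.2, 36.9, 56.3 and 32.2, in the order printed above. The 6 members with 1 mismatch had a median of 25.1 in replicate 1, range 11.97 to 28.8, and of 27.6 in replicate 2, range 20.6 to 41.0. The 6 with 2 mismatches, 5 of them optimal, had medians of 23.2 and 25.7. The 19 members with 3 mismatches had medians of 11.1 and 9.45, close to the 490 members with 4 or more, at 11.4 and 9.74. Of the 19 members with 3 mismatches, 0 overlapped an optimal peak. The word was chosen for its difference between optimal and other members at up to 2 mismatches, so the change in level between 2 and 3 mismatches follows from that choice. In replicate 1 the ranges of the groups with 0, 1 and 2 mismatches overlapped. In replicate 2 the lowest value with an exact copy, 32.2, was above the highest with 2 mismatches, 31.4, and both groups overlapped the group with 1 mismatch. The word was chosen on the optimal members, which were called from these same replicates. The order of these small groups is therefore a description too.

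Counted over the whole chromosome, the exact word had 6 copies on X and 0 on the autosomes, and 4 of the 6 lay in optimal peaks. With 1 mismatch there were 16 copies on X, of which 10 lay in optimal peaks (62.5%, exact 95% interval 35.4 to 84.8). With 2 mismatches there were 243 copies, of which 10 did so (4.12%, exact 95% interval 1.99 to 7.44). The word was chosen for its presence in these same peaks, so the shares describe that choice. Copies with mismatches were not particular to X: with 1 mismatch X held 0.903 per Mb and the autosomes between 0.393 and 0.800 per Mb, and with 2 mismatches X held 13.7 per Mb and the autosomes between 12.4 and 16.7 per Mb. The 20 optimal X peaks, with a median width of 396 bp, held 24 copies at up to 2 mismatches: 6 peaks held 0, 6 held 1, 6 held 2 and 2 held 3. The peak around 806742 held 3 copies, all with 2 mismatches, and that around 2997196 held 3, of which 2 had 1 mismatch.

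The 2 exact copies outside optimal peaks lay in no region of either replicate. The copy at chrX:5859930-5859941 was intergenic, 2772 bp upstream of the nearest start, that of ctbp-1, which encodes a transcriptional corepressor. Its nearest replicate 1 summit was 252 bp away, and its nearest replicate 2 summit 1758 bp away. The copy at chrX:11899364-11899375 was intergenic, with the nearest summits at 2729 and 1870 bp. Of the 6 copies with 1 mismatch outside optimal peaks, 1, in a coding exon of the filamin gene fln-2, lay in a replicate 2 region 90 bp from its summit, and the other 5 lay in no region.

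**Figure D1:**
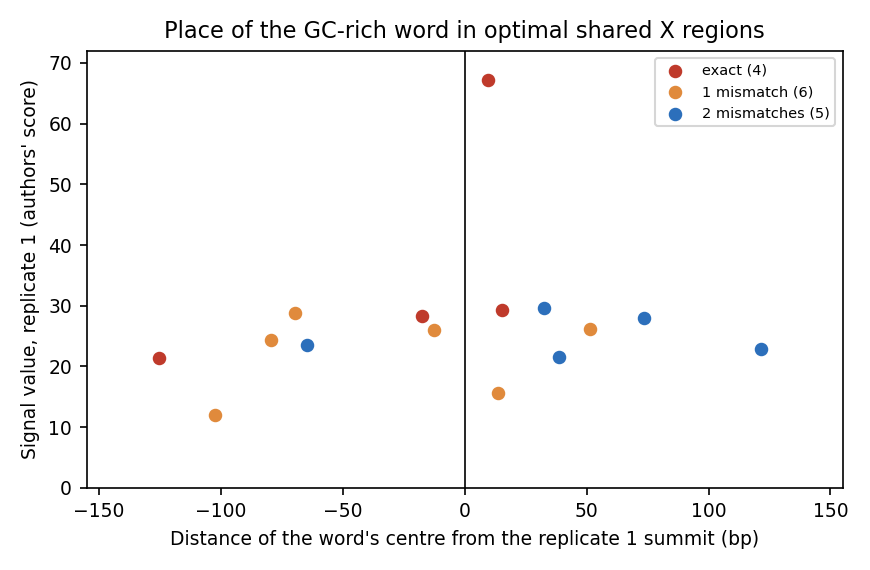
Distance of the word's centre from the replicate 1 summit in bp (x axis) against the replicate 1 signal value (y axis) for the 15 optimal members with the word, coloured by mismatches. Where a member had several copies, that with the fewest mismatches is shown. Points lie on both sides of the summit, between 9.5 and 125.5 bp from it, and the strongest member, at 67.2, has an exact copy 9.5 bp away.

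Where a member had several copies, that with the fewest mismatches was used, so distances are not always to the nearest copy. The word so placed lay at a median of 51.5 bp from the replicate 1 summit and 45.5 bp from the replicate 2 summit over the 15 members. Its centre was within 50 bp of the replicate 1 summit at 7 of the 15. With any copy inside the 50 bp window counted, the share was 34.8% of the optimal members. The strongest member, at summit 11094220, had its copy 9.5 bp from the summit, and the member near xol-1, at summit 8036530, had it 125.5 bp away. The median distance between the summits of the replicates was 81 bp in optimal members and 75 bp in the others, and the membership rule limits that distance to 208 bp. Single members varied: at 6296528 the summits were 2 bp apart and the word 51.5 bp away, and at 16056580 they were 25 bp apart and the word 73.5 bp away.

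The word rule by frequency alone gave an A-rich word, TGAAAAAAAAAT, found at 16 of the 23 optimal members (69.6%). It was also common elsewhere, at 46.6% of the other members, 49.4% of unshared X regions and 51% of shared autosomal regions. A nuclear receptor half-site, AGGTCA or GGGTCA on either strand within 50 bp of the summit, was at 1 of 23 optimal members and at 4.38% of the others, against 4.53% of unshared X regions and 4.26% of shared autosomal ones. The repeat GAGAGA was at 1 optimal member, at 7.57% of the others, at 5.87% of unshared X regions and at 6.48% of shared autosomal regions. Over all 525 members the shares were 4.38% (exact 95% interval 2.80 to 6.50) and 7.43% (5.34 to 10.02), and these intervals held the shares of the unshared X and the shared autosomal regions.

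Signal ranks of the members spanned nearly the whole of each list. Over the 525 members the replicate 1 signal value had a lowest, median and highest value of 9.20, 11.5 and 67.2, and replicate 2 had 7.08, 9.79 and 56.3. The 2009 unshared X regions had a median of 11.1 in replicate 1 and a highest value of 23.1. The shared autosomal regions had medians of 11.4 and 9.71, and highest values of 53.5 and 31.4. The medians of members and shared autosomal regions thus lay close together, while the highest X value was above the highest autosomal value in both replicates.

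The 23 optimal members had medians of 24.2 in replicate 1 and 27.97 in replicate 2, against 11.3 and 9.67 in the other 502. Their lowest values, 11.97 and 8.80, overlapped those of the others, whose highest values were 27.4 and 21.3. The members over 20 in both replicates numbered 18, and all 18 were optimal, whereas 7 shared autosomal regions passed the same level. The optimal list was called from these replicates, so the difference between optimal and other members is a description.

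**Figure D2:**
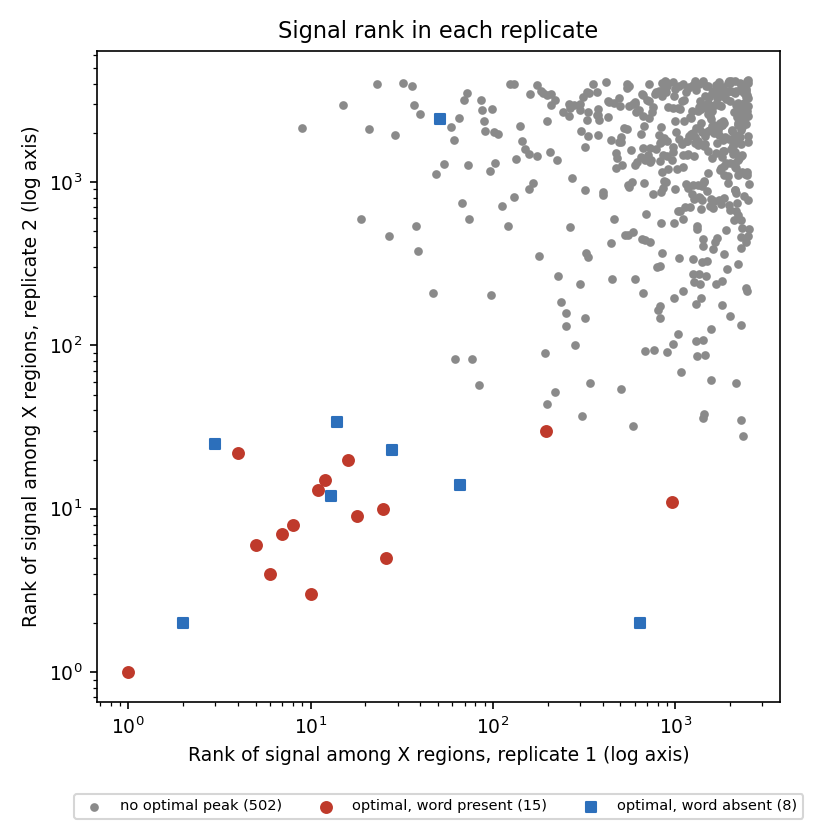
Rank of the signal value among all X regions in replicate 1 (x axis, log) and replicate 2 (y axis, log) for the 525 members, with 1 as the strongest. Most optimal members, with and without the word, lie toward the lower left, except those at rank 957 and rank 642 in replicate 1, rank 196 in replicate 1 and rank 2426 in replicate 2, while the 502 others lie mostly beyond rank 100 in both lists.

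The strongest X region was the same in both replicates, that at chrX:11094020-11094419, with signal values of 67.2 and 56.3 and rank 1 among nuclear regions in each list. The region at chrX:13700629-13701028 was second on X in both, with 35.3 and 43.4. The pair of overlapping regions at summits 13700829 and 13701042 shared the same replicate 2 region, and the weaker, with 12.9 in replicate 1, is on the same reads in part. Such overlaps concerned 38 members at 19 loci, so the 525 members made up 506 separate loci and used 512 replicate 2 regions.

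Ranks below the top were only weakly related. Spearman's rho of the signal value between replicates was 0.164 over 525 members, 0.0625 over the 502 members without an optimal peak and 0.326 over the 23 optimal members. Over 2440 shared autosomal regions it was 0.0659. These correlations run across regions, which are not replicates, and are given with no test. The value on X was lower without the 23 optimal members. They overlap peaks of a list thresholded by IDR and made from these same replicates, so that fall may follow in part from the selection.

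Single members illustrate the disagreement. The region with summit 16930161, in an exon of the non-coding gene C30E1.9, ranked 9 on X in replicate 1 with a value of 27.4, and 2142 in replicate 2 with 9.15. The region with summit 5801212, inside a tRNA gene, ranked 28 in replicate 2 with 21.3, and 2356 in replicate 1 with 9.44. Neither overlapped an optimal peak, and the former overlapped a peak of the authors' pooled list. In all, 53 members overlapped the pooled list, of which 30 were not optimal. The matching share of shared autosomal regions is not given here, so this count describes the members only.

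Read as −log10 q by its place in the list format, since no peak caller is named, the deposited significance column put 9 members below 0.05 in replicate 1. Of these, 8 were optimal, while replicate 2 had 0, its smallest q among members being 0.101. The median q was 0.889 in replicate 1 and 0.864 in replicate 2. The lists were deposited before the reproducibility threshold, and 50 members in replicate 1 and 69 in replicate 2 had a q below 0.5. The matching shares over the whole lists are not given here. These counts therefore describe the members and do not set them apart from other regions.

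**Figure D3:**
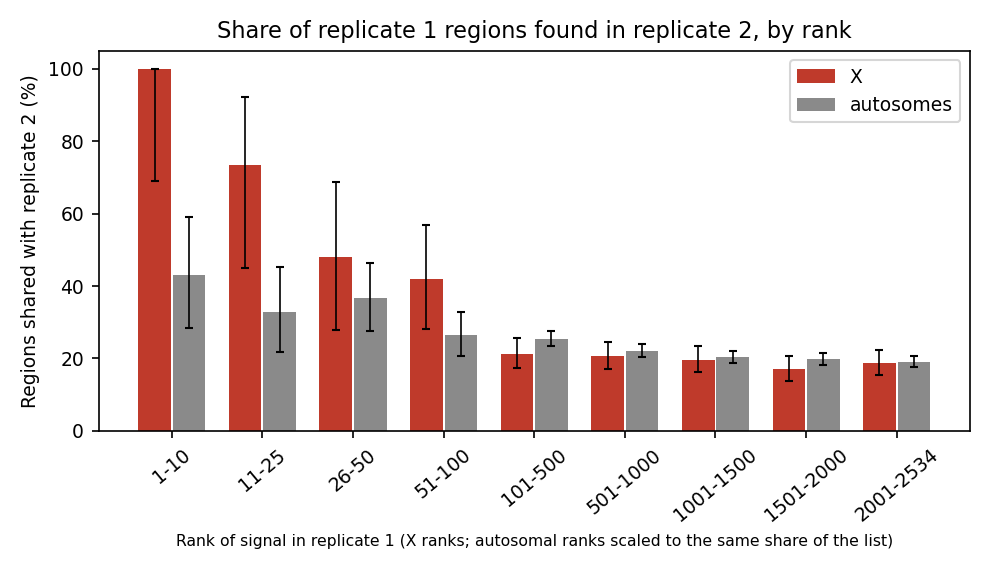
Share of replicate 1 regions found in replicate 2 (y axis, %) by rank of the replicate 1 signal value (x axis), for X and for autosomes at ranks scaled to the length of the list. Bars are shares and lines exact 95% intervals. The X share falls from 100% at ranks 1 to 10, against 43.2% on the autosomes, to 42% at ranks 51 to 100, against 26.5%. Beyond rank 100 it is between 17% and 21.3%, against 19.1% to 25.5%, and below the autosomal share in every class.

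Recurrence depended on rank. All 10 of the top 10 X regions of replicate 1 were shared, 11 of the next 15 (73.3%), 12 of the next 25 (48%) and 21 of the next 50 (42%). Beyond rank 100 the share was between 17% and 21.3% in each rank class. At matched ranks, the autosomal share was 43.2% at the top and 19.1% at the bottom, so the X share was above the autosomal share in the first 4 classes, and the exact intervals were apart in the first of them only. From the side of replicate 2, all 10 of the top 10 X regions held a member, 60% of ranks 11 to 25, 36% of ranks 26 to 50 and 28% of ranks 51 to 100, and the share fell to 9.90% beyond rank 2000. The strongest unshared X region of replicate 1 ranked 17.

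The edge of the membership rule was not sharp in signal. Another 213 X regions of replicate 1 overlapped a replicate 2 region without their summit in it, and had a median of 10.9 and a range of 9.21 to 19.4. The 84 members whose summit lay within 50 bp of the edge of the replicate 2 region had a median of 12.1. The 2 groups overlapped.

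The members were spread along the whole chromosome. The first summit was at 346232 and the last at 17687768 on a chromosome of 17718942 bp. Divided into 3 equal parts, X held 31.2% (exact 95% interval 27.3 to 35.4), 36.6% (32.4 to 40.9) and 32.2% (28.2 to 36.4) of the members from left to right, against 32.6%, 33.7% and 33.7% of all replicate 1 X regions. Each of these shares lay inside the members' intervals. The 20 optimal loci were divided 7, 6 and 7. Over 10 equal bins, the count was lowest at 44, in bins 2 and 7, and highest at 70, in bin 4, where 24.7% of replicate 1 regions were shared.

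**Figure D4:**
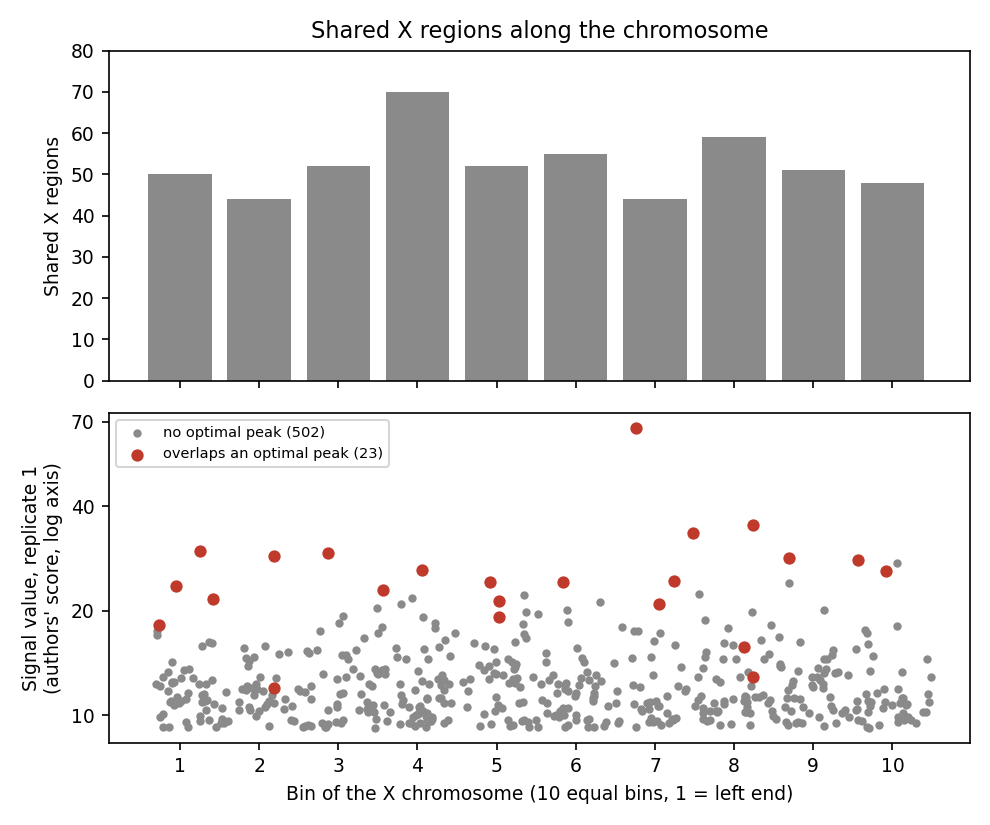
Upper panel: number of members (y axis) in each of 10 equal bins of X (x axis). Lower panel: replicate 1 signal value on a log axis against position in bins, with optimal members in red. Counts run from 44 to 70, and optimal members occur in every bin.

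Neighbouring member summits were a median of 23339 bp apart (95% interval of the median 20963 to 25224, n = 524 spacings). Spacings ran from 199 to 244673 bp, with quartiles of 8419 and 46675 bp. Of these, 19 were under 400 bp, the width of a region, and 26 were over 100000 bp. The longest ran from summit 1964154 to 2208827. The density of members was 29.6 per Mb, inside the range of 27.4 to 35.6 per Mb over the nuclear chromosomes. Optimal loci were much sparser, with a median spacing of 825 kb and a range of 186 to 1628 kb.

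Most members lay away from promoters. A protein-coding transcript start was within 500 bp of 18.7% of members (98 of 525, exact 95% interval 15.4 to 22.3), against 19.6% of unshared X regions and 28.03% of shared autosomal regions (exact 95% interval 26.3 to 29.9). The interval of the autosomal regions did not overlap that of the members, and that of unshared X regions, 17.8 to 21.4, did. By this measure shared X regions lay close to unshared X regions and below shared autosomal regions. The members were intergenic at 39.2%, intronic at 30.7%, in coding exons at 18.9% and in UTRs at 6.48%. Unshared X regions had 40.1% intergenic and shared autosomal regions 32.05%.

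**Figure D5:**
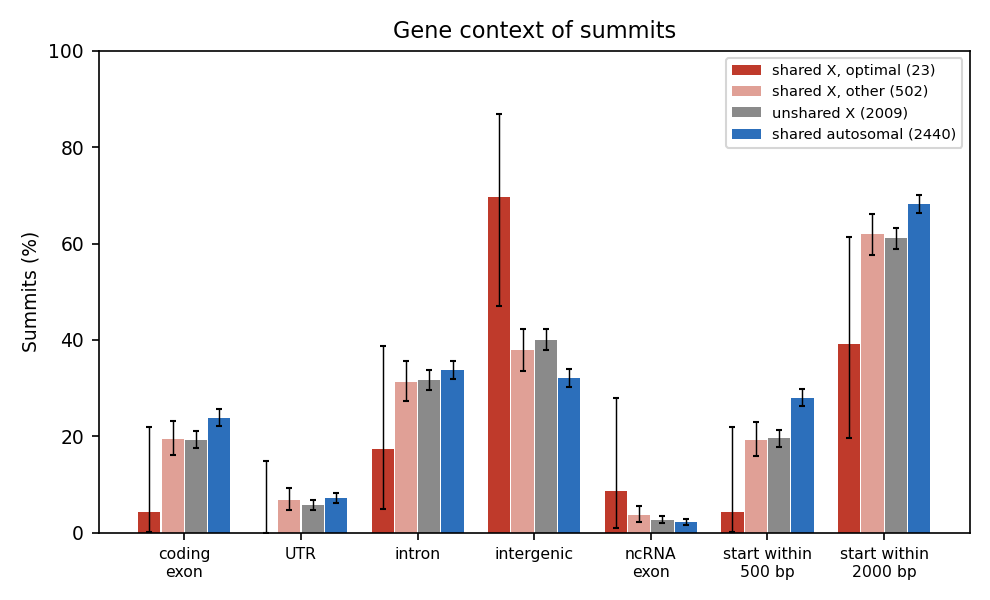
Share of summits (y axis, %) in each gene context for optimal members, other members, unshared X regions and shared autosomal regions, with exact 95% intervals as lines. Optimal members are 69.6% intergenic against 37.8% of other members, and autosomal regions lie more often near starts than either X set of over 500 regions.

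Optimal members differed from the other members in place. Of the 23, 16 were intergenic (69.6%, exact 95% interval 47.1 to 86.8), against 37.8% of the others (33.6 to 42.3). The intervals did not overlap, and the 23 include 3 pairs at the same locus. Only 1 optimal member, beside ftt-2, had a start within 500 bp (4.35%, 0.110 to 21.9), against 19.3% of the others (16.0 to 23.1), and these intervals overlapped. The median distance to a start was 2556 bp in optimal members and 1570 bp in the others. GC content within 50 bp of the summit had a median of 42.6% in optimal members and 35.6% in the others, with X as a whole at 35.2%, and the word itself is GC-rich.

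Within 2 kb of a protein-coding start lay 9 of the 23 optimal members, and the genes varied in kind. The strongest of these in replicate 1, without the word, was 1681 bp downstream of the start of F19H6.5, with signal values of 33.5 and 21.4. The next was 606 bp upstream of ins-39, an insulin-related peptide gene, with 29.7 and 22.7. A member with 29.3 and 33.2 and an exact word was 1769 bp upstream of F20B6.9. The member with 28.3 and 32.2, also with an exact word, was 740 bp upstream of nspc-17, a member of a nematode-specific peptide family. The 14-3-3 protein gene ftt-2 had a member 468 bp upstream, with 20.9 and 22.5. Other genes were fbxb-58, an F-box gene, at 1066 bp, ZK1193.2 at 542 bp, T27A8.7 at 1035 bp and F55G7.5 at 1386 bp. The member near ZK1193.2 also had a tRNA gene 23 bp from its summit. Nearness to a start does not say which gene, if any, a region acts on.

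Among optimal members inside genes, that at 6296528 lay in an intron of mom-1, which acts in Wnt secretion, with signal values of 26.2 and 41.0. That at 5429439 lay in a coding exon of pks-1, a polyketide synthase gene, 15089 bp from the nearest start, with 22.9 and 29.4. The pair at 2997196 and 2997404 lay in an intron of Y41G9A.17, with 28.8 and 11.97 in replicate 1 and 39.2 and 27.97 in replicate 2. The pair at 8036530 and 8036807 lay 4783 and 4506 bp upstream of xol-1, the switch gene of sex determination. Its values were 21.3 and 19.1 in replicate 1, and 36.9 and 8.80 in replicate 2, so the second of the pair was weak in replicate 2. The gene xol-1 is beyond 2 kb and was named after its values were seen. A tRNA gene was closer, within 500 bp of both summits of the pair and 50 bp from 8036807.

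The 10 other members with the best worse rank in both replicates had ranks of 82 to 252 on X in their weaker replicate. Overlapping regions at 6593676 and 6593876, within fbxl-4, an F-box and leucine-rich repeat gene, had 18.4 and 17.8 in replicate 1. They shared a replicate 2 region with 17.4, and a tRNA gene lay within 500 bp of both, 8 bp from 6593676. The member 881 bp downstream of the start of R11.4, near 2 tRNA genes, had 17.5 and 18.2. The member 854 bp upstream of tbh-1, the tyramine beta-hydroxylase gene needed for octopamine, had 15.4 and 18.7, and that 279 bp upstream of a start of rgs-6, a regulator of G-protein signalling, had 15.7 and 19.1. A member 315 bp upstream of F38B6.8 had 15.7 and 17.2, and 1 in an intron of nlp-76, a neuropeptide-like gene, had 15.2 and 15.4. The remaining 3 lay in sto-2, a stomatin gene, in a coding exon of F47B7.2, and 2439 bp from a start of pdi-2, a protein disulfide isomerase gene. The member in sto-2 had a tRNA gene 159 bp from its summit.

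Over gene lists, members were near few genes of any kind. Within 2 kb of a start, 338 of 2731 X protein-coding genes had a member, a background of 12.4%. Of 6 X-linked sex-signal and dosage compensation genes, 2 had a member, sdc-1 at 392 bp with 16.0 and 11.2, and fox-1 at 1300 bp with 10.3 and 9.16. Of 27 nuclear hormone receptor genes on X, 3 had one, nhr-1, nhr-35 and nhr-48 (11.1%), with replicate 1 values between 10.2 and 11.6. The share was 4 of 34 neuropeptide genes (11.8%), 3 of 29 cuticle collagens (10.3%), 3 of 24 ligand-gated channel genes (12.5%), 1 of 21 homeobox genes (4.76%), here ceh-60, and 0 of 3 C-type lectins. Only the list of 6 genes lay well above the background, and its exact interval, 4.33 to 77.7, held the background share.

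Non-coding RNA genes showed 1 departure, at tRNA genes, which are transcribed by RNA polymerase III. Within 500 bp of a tRNA gene lay 32 of 525 members (6.10%, exact 95% interval 4.21 to 8.50), against a background of 2.19% of unshared X regions (1.60 to 2.93) and 0.902% of shared autosomal regions (0.566 to 1.36). None of these intervals overlapped. X holds 276 of the annotated tRNA genes and the autosomes 336. A shared summit was within 500 bp of 40 of the X genes (14.5%, 10.6 to 19.2) and 22 of the autosomal genes (6.55%, 4.15 to 9.75). Of the 32 members, 3 were optimal and 29 were not, they made up 29 loci, and 6 had the summit inside a tRNA gene. Their median signal was 13.9 in replicate 1 and 11.2 in replicate 2, against 11.4 and 9.74 in the 493 members away from tRNA genes. Other small RNA genes were near few members, with 2 of 74 microRNA genes (mir-84 at 82 bp and mir-239a at 485 bp), 1 of 33 snoRNA genes and 0 of 3 snRNA genes, beside 5.11% of all X non-coding RNA genes.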

How the data were processed

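Peak lists of 2 biological replicates were analysed, with the optimal and pooled lists. Per the file names and labels, the authors made them on ce11 (and ce10); the sources used here give no caller, aligner, normalization, IDR threshold or read depth. The deposited signal value is a peak score and signal depth is unknown, so no count or read-based interval is given. A further deposited column was read as the −log10 q-value from the order of columns and its values, and is printed here as q. Mean values over replicates were not formed, since list scores are not on a stated common scale.

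Members and lists were chosen with earlier results of these data known, among them a GC-rich word at X peaks. Members were found from summits (start plus offset). Gene context came from Ensembl release 115 on WBcel235, in the order coding exon, UTR, non-coding RNA exon, pseudogene, intron and intergenic. Genes were named by a protein-coding start within 2 kb or a small RNA gene within 500 bp. This was done for every optimal member, the 10 other members with the best worse rank, and members near the listed genes. Hosts of summits are also named. Outside this rule, fln-2 is named as the host of a word copy, and pdi-2, ctbp-1 and xol-1 have starts beyond 2 kb. A first word rule, by frequency, gave an A-rich word, and the rule by difference was added after that. The 12-base words were ranked over both strands. No test was run, and exact Clopper-Pearson 95% intervals cover counting error over regions. Both replicates form 1 group, and controls were not analysed here. The code was tested on simulated data. Intervals were computed with scipy 1.17.1, tables with pandas 2.3.3 and numpy 2.4.6, and figures with matplotlib 3.10.9, under Python 3.11.15.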

Additional observations from a re-analysis of the deposited data

How the results depend on the processing

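Of 50 alternatives, 33 were classed as near the value reported, 17 as moved and 0 as reversed. Some classed as near differed widely, such as the 738 shared X regions found with any overlap of 1 bp. The number of shared X regions, 525, became 336 when summits had to lie within 100 bp of each other. It ran from 2534 to 4201 with all X regions of a single replicate, that is, with the other left out. The share overlapping an optimal peak, 4.38%, was 10.1% against the pooled list, 2.68% with the ce10 lists and 8.75% in the members with the higher replicate 1 signal. The median spacing, 23339 bp, was 15657 bp with any overlap of 1 bp and 34330 bp with summits within 100 bp, and ran from 2892 to 4819 bp over single replicates. The share near a start was 33.3% at 1000 bp and 10.3% at 250 bp. The correlation of signal fell to 0.0625 without optimal members. The A-rich word was found at 21.7% of optimal members with 1 mismatch, at 100% with 3 and at 21.7% within 50 bp. The GC-rich word, at 65.2% of optimal members, was found at 43.5% with at most 1 mismatch and at 34.8% within 50 bp. Both alternatives were chosen after seeing the data, and the first was classed as near. With at most 3 mismatches, also chosen after seeing the data, the share of the GC-rich word stayed at 65.2%. Widening the window or the mismatches can raise these shares, and cannot lower them, by construction. The cause of the other moves was not tested. No paired analysis was possible because both replicates form 1 group and no result comes from a test. Read depth is unknown, so weak regions cannot be placed against sampling noise, and the lists contain background by design.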

Other observations

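The 14 loci with the GC-rich word were also read for the short word GTGGA, which was chosen after the printed sequences had been seen, so its count is a description. It lay within 40 bases after the word, on the same strand, at 5 of the 14 loci, with 11 bases between at 2997196 and 11094220, 13 bases at 8036530 and 14525921, and 29 bases at 5429439. At 1 more locus, 1345027, it lay before the word on the other strand. Over both sides and both strands it was thus near 6 of the 14 loci, and 48 of the 502 other members held it in a window of 93 bases on either strand (9.56%). On 1 side and strand only, in the 40 bases after the summit on the plus strand, 9 of the 502 did (1.79%). Of the 4 exact copies of the GC-rich word, 3 are among these 5 loci. With 14 loci these shares are imprecise.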
